A study of Mus musculus with 2 samples.

Results

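The WASH complex and the actin capping protein that it carries were followed in sorted LT-HSC (long-term blood stem cells, the rare marrow cells that can rebuild all blood lineages) of WASH knockout and control mice. The members were the 8 genes Washc1 to Washc5, Capza1, Capza2 and Capzb, and every array sequence whose gene name in the files was one of these, or an older symbol of one, was taken. This gave 14 of 44170 sequences on the array, for 7 of the 8 genes, and Washc4 was not analysed here. A sequence named Cpb2 was left out, because this old synonym of Capzb belongs here to another gene.

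The mice were of the C57/BL6 strain. The control group was labelled wild type and the other group knock out, with no allele, promoter, age or sex given in the labels. LT-HSC were sorted by flow cytometry from femur marrow, and Cy3-labelled RNA of each genotype was read on 1 NimbleGen array, 2 arrays in all. The labels do not say how many animals went into an array. With 1 array per genotype there is no replicate spread, so no difference below was tested, and each value describes these arrays only. The deposited RMA intensities are on a linear scale, and every member sequence was read by 3 probes. Differences are log2 of knockout over control, so that -1 is 2-fold lower in the knockout. The number of arrays limits the precision of every value.

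WASH is a protein complex on the surface of endosomes, the sorting compartments of the cell. Its catalytic subunit WASH, encoded by Washc1, switches on the Arp2/3 complex, which starts branched actin filaments, and the actin patch helps to pull receptors into carriers that return them to the plasma membrane. Washc2 encodes FAM21, the subunit with a long tail that binds retromer and capping protein. Washc3 encodes CCDC53, Washc4 encodes SWIP and Washc5 encodes strumpellin, a subunit that is altered in a form of hereditary spastic paraplegia. Capping protein is a pair of an alpha subunit (Capza1 or Capza2) and a beta subunit (Capzb) that closes the growing end of actin filaments throughout the cell, so only some of it is bound to WASH.

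By their brightest sequences, Washc2 and Capza2 were at least 2-fold lower in knockout cells, and Capzb was lower by less than 2-fold. By the same reading Capza1, Washc1, Washc3 and Washc5 lay close to their control values. Of these, Washc1, Washc3 and Washc5 had signals near background, where a decrease may not show. All 3 sequences of Washc2 and both of Capza2 were lower in the knockout, while the sequences of Capza1, Capzb and Washc3 did not all point in the same direction. Of the 14 sequences, 11 were lower and 3 higher, with a median log2 difference of -0.34 beside 0.01 over all 44170 sequences. A total of 3 member sequences were at least 2-fold lower, where 6.77% of all sequences were, and 1 was at least 2-fold higher, where 5.98% of all sequences were. The 3 lower sequences come from only Washc2 and Capza2, so they are not independent of each other.

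The promoter of Washc2 is shown because the published work on these mice concerned the transcription factor c-Myc, and because this gene had the most negative difference by brightest sequence among the members. Myc and its partner Max bind the letters CACGTG, as several other factors do. RefSeq promoter windows (build GRCm38.p6, 250 bases before to 50 bases after a start site) were found for 7 of the 8 genes. Washc2, Washc4 and Washc1 had a window with this hexamer, which reads the same on both strands, beside 8.09% of all 27025 genes. Washc1 had 2 windows, of which only 1 held it. Among all 32851 windows 7.15% held it and 0.594% held it more than once. The Washc2 window held 2 copies, which begin 21 and 5 bases before the start site. Below, the stretch of Washc2 up to its start site (chr6:116207913-116208033, plus strand) is set beside the same stretch of Capza2 (chr6:17636890-17637010, plus strand), and capitals mark the hexamer.
Washc2: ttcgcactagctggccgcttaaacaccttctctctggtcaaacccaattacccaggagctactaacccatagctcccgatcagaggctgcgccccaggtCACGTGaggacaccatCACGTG
Capza2: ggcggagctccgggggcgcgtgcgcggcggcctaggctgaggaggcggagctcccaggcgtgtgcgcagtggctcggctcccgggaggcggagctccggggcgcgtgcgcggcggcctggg
The Capza2 window had no match, and its printed stretch was richer in G and C (81.8%) than that of Washc2 (56.2%). A match describes letters in this window only and is no measure of binding. Of the other genes with a match, Washc1 differed by -0.15 on a dim signal, and Washc4 was not analysed here on the arrays. A link between the hexamer and the differences was not tested.

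Washc1, the targeted gene, was read by the single sequence BC025839 (chromosome 17, 66460972 to 66468796, MM9), with intensities of 119 in control and 107 in knockout cells. These values differ by -0.15 on the log2 scale. Probes of random sequence, which match no mouse gene, gave 71.3 on the control and 75.7 on the knockout array, and Washc1 stood at 1.67 and 1.42 times these levels. It ranked at percentile 45.4 among control values and 41.8 among knockout values. The signal of the targeted gene was thus dim on both arrays and nearly equal. Where its probes lie relative to the deleted part was not given in the sources used here, so Washc1 cannot serve here as a check of the genotype.

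Washc2 had 3 sequences, all on chromosome 6 of MM9. The brightest, AK163765 (116158123 to 116205145), read 466 in control and 151 in knockout cells, a log2 difference of -1.63. It went from percentile 82.3 of the control array to percentile 53.0 of the knockout array, having stood at 6.54 times the random-sequence level in the control. Of the WASH core sequences it was the brightest in control cells, and both its values lay above that level. BC056942, the full-length clone (116158123 to 116212683), was at 159 and 47.0. Its knockout value lay below the random-sequence level, so this sequence is at least 2.10-fold lower. BC032177, a clone that the file describes as holding frame-shift errors (116158533 to 116196278), was at 148 and 89.7, a difference of -0.72 that stayed short of 2-fold. On both of these sequences the control signal was only 2.23 and 2.08 times the random-sequence level. All 3 sequences thus lay in the same direction, but only AK163765 and BC032177 have a measured size.

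Washc3 had 2 sequences on chromosome 10 that disagreed. BC029256 (87663956 to 87708754) read 142 in control and 136 in knockout cells, a difference of -0.07. AK017732 (87663839 to 87688105) was at 47.3 and 102, the only member sequence at least 2-fold higher before the background is considered. Its control value lay below the random-sequence level, so it is at least 1.43-fold higher and the 2-fold size is not supported by a measured value. The sequence with both values above that level thus read Washc3 as nearly equal on the arrays.

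Washc5 had the single sequence BC034070 (chromosome 15, 59163551 to 59184084), at 73.5 in control and 67.4 in knockout cells. These are 1.03 and 0.891 times the random-sequence levels, and no fold can be given. The strumpellin signal was therefore near the background of the array in both genotypes. Of the 4 WASH core genes measured, Washc2 was the one member with a signal well above the random-sequence level in the control, and the median difference over the 7 core sequences was -0.15.

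**Figure D1:**
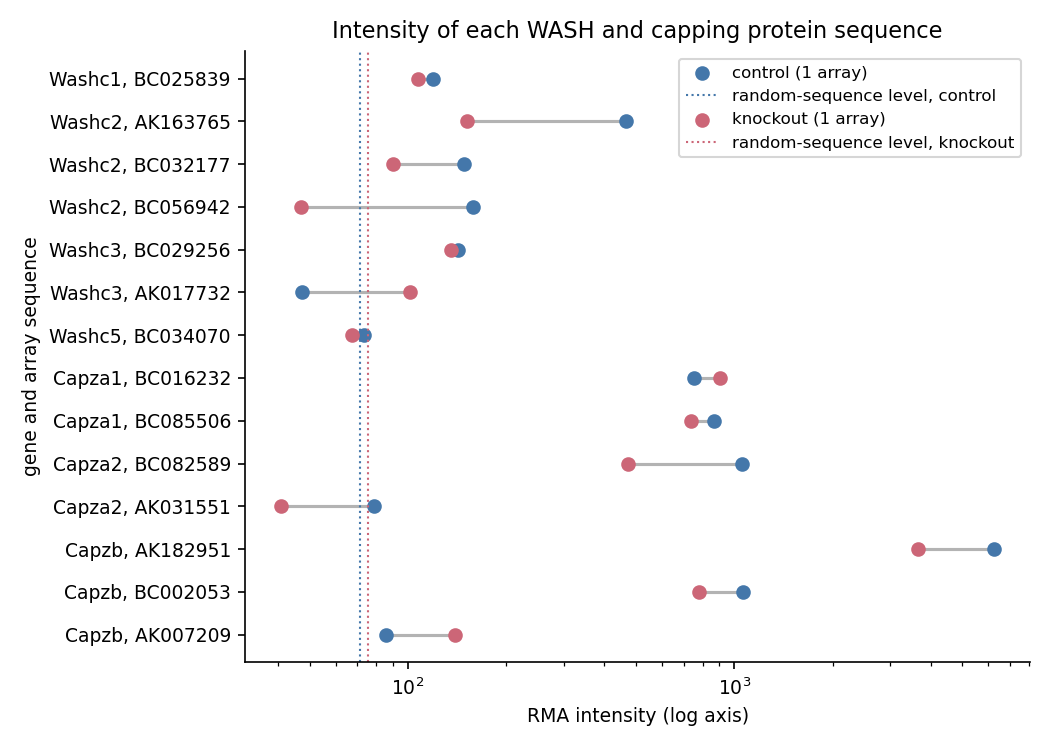
RMA intensity (log axis) of each of the 14 member sequences on the control array (blue) and the knockout array (red), with dotted lines at the random-sequence levels of 71.3 and 75.7. The points of Washc2 and of Capza2 BC082589 lie far apart, those of Washc1, Washc5 and Capza1 lie close together, and the Capzb sequence at 6250.3 is the brightest.

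The capping protein genes gave brighter signals than the WASH core genes on this array, although levels of different probes cannot be compared as amounts of RNA. Capza2 was read by BC082589 (chromosome 6, 17587097 to 17616536) at 1058 in control and 471 in knockout cells, a log2 difference of -1.17. It lay at percentile 93.3 of the control array and 82.7 of the knockout array, and both values were over the random-sequence level, by 14.8 and 6.23 times. The other sequence, AK031551 (17587097 to 17609609), was at 78.6 and 40.9, a difference of -0.94. Its knockout value was below the random-sequence level and its control value barely above, so it is at least 1.04-fold lower and adds little.

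Capza1, which encodes the other common alpha subunit, did not show this difference. Its sequences BC016232 and BC085506 cover almost the same stretch of chromosome 3 (104625852 to 104667312 and 104625852 to 104667298). The first read 751 in control and 906 in knockout cells, a difference of 0.27. The second was at 863 and 736, a difference of -0.23. The pair thus straddled 0, at 9.72 to 12.1 times the random-sequence level, and differed from each other by 0.50 although the gene and the arrays were the same. A sequence was in the detected range when at least its higher value exceeded the median of that array, and 4969 genes had more than 1 such sequence. The median gap between the lowest and highest difference over these genes was 0.73, with quartiles of 0.35 and 1.22, and 35.4% of them had a smaller gap than Capza1. The 3 sequences of Washc2 had a gap of 1.03, with BC056942 at its unmeasured size, and 67.3% of these genes had a smaller gap. Capza2 had 1 sequence in the detected range and so no such gap. The upper quartile of these gaps is larger than the difference of Capza2 (-1.17) in size, although a gap spans several sequences and a difference is of 1.

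Capzb, which encodes the only beta subunit among the members, had 3 sequences on chromosome 4. AK182951 (138836382 to 138843758) read 6250.3 in control and 3656 in knockout cells, a difference of -0.77, and stayed at percentile 99.2 and 98.7 of the arrays. BC002053 (138748871 to 138847674) was at 1063 and 781, a difference of -0.45. Both bright sequences were lower, by 1.71-fold and 1.36-fold, so neither reached the 2-fold size. AK007209 (138750025 to 138795346), a clone from testis, went the other way, from 85.5 to 139, a difference of 0.70. It is described as similar to a fragment of the capping protein beta 3 subunit. Whether it reads the same transcripts as the bright sequences was not tested. Its control value was close to background, and its knockout value stood at 1.84 times the random-sequence level. The range over the 3 sequences was 1.48, wider than that of 83.0% of those 4969 genes, and the direction of Capzb rests on the bright sequences.

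Sequences of the same gene ended at different places along it (strand from RefSeq, spans from MM9), and no common pattern of these ends with the signal was seen. Where the probes lie within a sequence was not given in the sources used here, so an effect of probe position was not tested. AK031551 of Capza2, AK017732 of Washc3 and AK007209 of Capzb end 6927, 20649 and 52328 bases before the 3′ end of the longest sequence of their gene, and in control cells they stood at 1.10, 0.663 and 1.20 times the random-sequence level, in that order. AK163765 of Washc2 and AK182951 of Capzb also end short of that point, by 7538 and 3916 bases, and gave the brightest signals of their genes. BC032177 of Washc2 ends 16405 bases short and stood at 2.08 times the random-sequence level. Whether the dim sequences read transcripts that LT-HSC make was not tested.

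**Figure D2:**
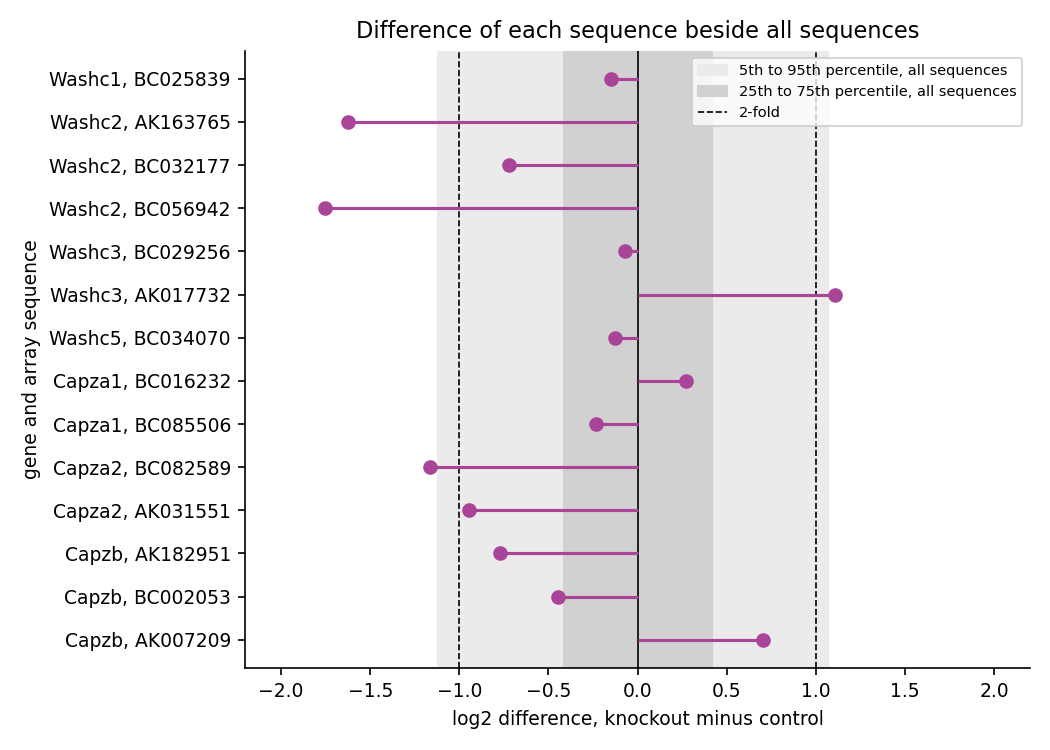
Log2 difference (knockout minus control) of each member sequence, with grey bands for the middle 50% (-0.41 to 0.42) and the range from percentile 5 to percentile 95 (-1.12 to 1.07) of all 44170 sequences. Washc2 AK163765 and Capza2 BC082589 lie below the bands. So does Washc2 BC056942 and, on the other side, Washc3 AK017732 lies above them, but each of these has an array value below the random-sequence level and its plotted size is not measured.

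A filter on dim sequences changed which members were counted. In the detected range were 10 of the 14 member sequences, of 24899 sequences in that range overall. Of these 10, 3 were at least 2-fold lower, beside 8.20% of the sequences there, and 0 were at least 2-fold higher, beside 6.77%. A total of 4 of the 10 (BC056942 and BC032177 of Washc2, BC029256 of Washc3 and AK007209 of Capzb) passed through 1 array alone, so they had to differ to some extent, and these counts are a description only. Above percentile 75 of either array were 6 member sequences, 2 of them at least 2-fold lower (AK163765 of Washc2 and BC082589 of Capza2), beside 8.01% of the 12842 sequences there, and 0 at least 2-fold higher, beside 5.84%. AK163765 passed this filter through the control array alone. With each gene represented by its brightest sequence, 2 of 7 member genes were at least 2-fold lower, beside 6.42% of 24171 genes, and 0 were higher, beside 5.94%. In the detected range were 5 of these genes, with the same 2 lower beside 7.29% of the genes there and 0 higher beside 6.41%.

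The authors' series table holds 34218 of the 44170 sequences. Every sequence in it was at 50 or above on both arrays, and all 9952 sequences left out of it were below 50 on an array. This removed 3 member sequences, BC056942 of Washc2, AK017732 of Washc3 and AK031551 of Capza2. Within that table the members thus hold 11 sequences, 2 of them of Washc2.

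**Figure D3:**
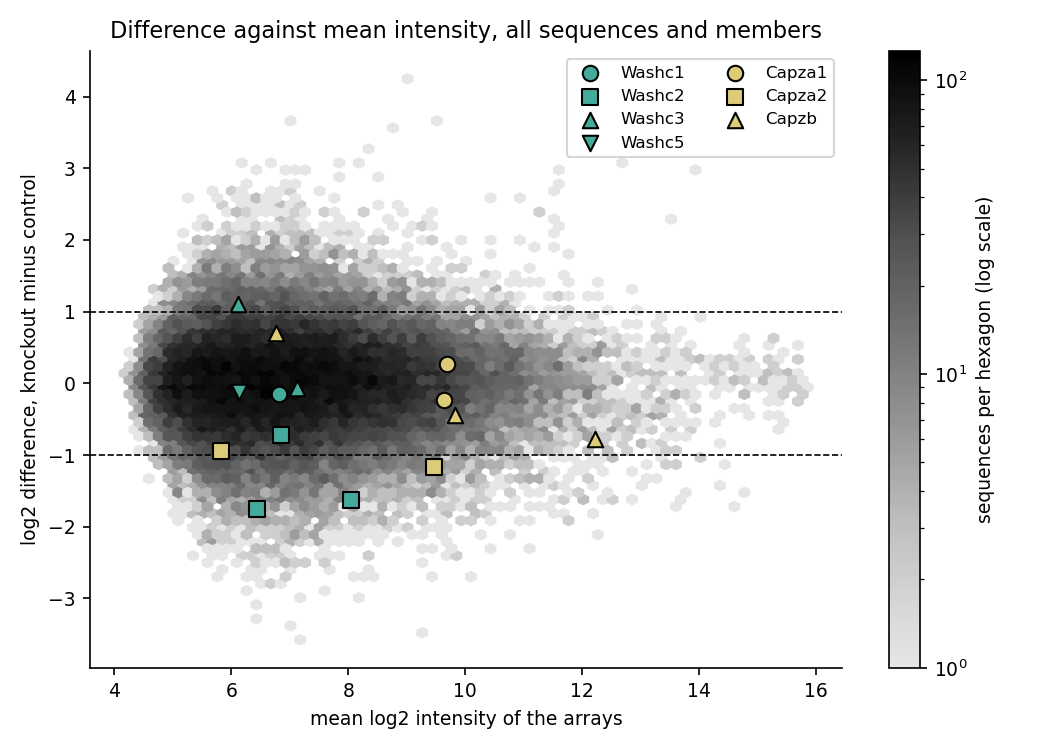
Log2 difference against mean log2 intensity for all sequences (grey hexagons, shaded by number on a log scale) and for the members (green for WASH core genes, yellow for capping protein genes), with dashed lines at 2-fold. The Washc1, Washc3 and Washc5 points sit in the dim part of the arrays, while Capza1, Capza2 BC082589 and the bright Capzb sequences lie to the right.

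Partners of the complex were read from lists by the brightest sequence of each gene, beside a median of 0.02 over all 24171 genes, of which 48.3% were lower, 6.42% at least 2-fold lower and 5.94% at least 2-fold higher. The regulators of capping protein showed no common direction: of 9 measured genes 4 were lower and 5 higher, 0 reached 2-fold in either direction, and the median was 0.03. Sh3kbp1, which encodes the adaptor CIN85 that binds capping protein, was at 1899 in control and 1153 in knockout cells (-0.72), with all 7 of its sequences lower. Rcsd1, which encodes the capping protein binder CapZIP, was at 1551 and 949 (-0.71), with both sequences lower. Mtpn, which encodes the capping inhibitor myotrophin, had sequences at -0.82 and 0.59. Capza3, the alpha subunit of male germ cells, was below the random-sequence level on both arrays, at 23.0 and 24.5. Carmil2 and Cd2ap were not analysed here.

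The Arp2/3 complex, the nucleator that WASH switches on, was lower as a list. Of its 9 genes, 7 were lower, 3 at least 2-fold lower and 0 at least 2-fold higher, with a median of -0.92, beside the 48.3%, 6.42% and 5.94% of all genes. Actr3, an actin-related subunit at the base of the new filament, went from 7159 to 2388 (-1.58), and both its sequences were lower. Arpc5 went from 4061 to 1650.1 (-1.30) and Actr2 from 378 to 176 (-1.10). Arpc1a was higher by 0.93, from a control value at 1.07 times the random-sequence level. Arpc5l, below that level in the control, was at least 1.12-fold higher. By their brightest sequences the members Washc2, Capza2 and Capzb were lower too, but they are named here because they were lower. Of the other measured members, Washc1 (-0.15), Washc3 (-0.07) and Washc5 (-0.12) were nearly equal. Their signals were near background, where a decrease may not show, and no fold can be given for Washc5. The sequences of Capza1 straddled 0, at 0.27 and -0.23. A link between the members and the nucleator was not tested.

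The genes that bring WASH to endosomes or work beside it there were lower in 13 of 17 cases, with a median of -0.33. Over all 41 of their sequences the median was -0.20. Tbc1d5, counted as lower, had only 2 of its 6 sequences lower. Vps26a, also counted as lower, and Ccdc93, counted as higher, were below the random-sequence level on both arrays. By brightest sequence 4 of the 17 genes were at least 2-fold lower and 0 at least 2-fold higher, beside the same shares of all genes. Those 4 were the sorting nexin genes Snx27 (302 to 119, -1.34), Snx2 (312 to 125, -1.31), Snx6 (202 to 86.4, -1.23) and Snx5 (883 to 409, -1.11). Sorting nexins bend and select membrane for recycling. Snx27, Snx2 and Snx5 had 1 sequence each, and the other sequence of Snx6 differed by -0.26. Vps35, which encodes the retromer subunit that the FAM21 tail binds, was at 136 and 131 (-0.06), and Snx1 was higher by 0.29. Of 7 genes for ubiquitin and autophagy partners of WASH, 1 was at least 2-fold lower (6.42% of all genes were) and 0 higher, with a median of 0.21. That gene, Becn1, which encodes the autophagy initiator Beclin 1, went from 126 to 62.2, below the random-sequence level, and is at least 1.66-fold lower.

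**Figure D4:**
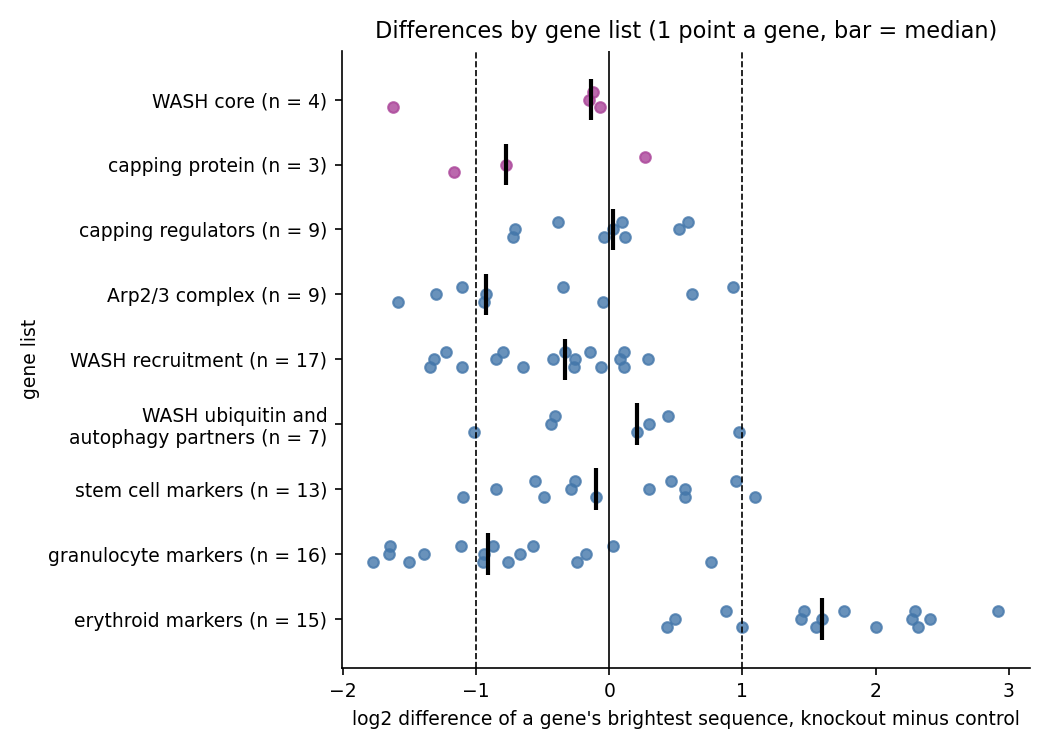
Log2 difference of the brightest sequence of each gene, by list, with a black bar at the median of the list and dashed lines at 2-fold. The capping protein genes (median -0.77) and the Arp2/3 genes (median -0.92) lie mostly left of 0 together with the granulocyte markers (median -0.91), the erythroid markers lie right of 0 (median 1.60), and the WASH core genes other than Washc2 lie close to 0.

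Markers of other blood cells differed between the arrays along with the members. All 15 measured erythroid markers of 18 listed were higher in the knockout, 11 at least 2-fold, where 5.94% of all genes were. The sum of their intensities was 16177 in the control and 84755 in the knockout. The largest parts of this sum came from Hbb-b1 (5699 and 43218) and Hba-a2 (5551 and 26801). Of 16 granulocyte markers 14 were lower, 6 at least 2-fold, where 6.42% of all genes were. Among the 6, Csf3r lay below the random-sequence level in the knockout and is at least 1.75-fold lower. The sums were 142283 and 55551, with the largest parts from S100a8 (47334 and 16696) and S100a9 (34133 and 13043). None of the markers in these lists was at or below the random-sequence level on both arrays. The samples were sorted LT-HSC, a sort meant to leave out red cell precursors and granulocytes. In RNA of many cells, fewer cells of a type and less RNA per cell cannot be told apart, and the part of this marker difference in the lower values of Capza2, Capzb and Washc2 was not tested. The stem cell markers had a median of -0.10, with 7 of 13 lower and 6 higher. Of the 13, 1 was at least 2-fold lower (Mecom, -1.10), beside 6.42% of all genes. The sequences of Mecom disagreed, with 4 of 6 lower and a range from -1.65 to 0.49. Another 1 was at least 2-fold higher (Tal1, 1.10), beside 5.94%. Of the others, Kit was at 398 and 489 and Ly6a, which encodes Sca-1, at 835 and 596, while Procr, Tek and Fgd5 stayed at or under the level of random probes in both genotypes.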

How the data were processed

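The authors deposited 1 intensity per sequence and array, made by RMA (robust multi-array average) per the submitters' processing notes, with its version not given in the sources used here. Because RMA equalises arrays, a change shared by most genes cannot be seen in these values. The deposited intensities had medians of 137 on each array over 44170 sequences, and 28.1% of the control and 29.9% of the knockout values were at or below the level of the 5000 random-sequence probes. Intensities were put on the log2 scale without further scaling. Older symbols were replaced by those of RefSeq, in which 21583 of the gene identifiers were found. A gene was represented by its sequence with the highest mean log2 value. With 1 array per genotype nothing was tested, and sequences were counted at 2-fold (log2 limit 1). A value at or below the random-sequence level on 1 array was replaced by that level to give an "at least" fold. The rule named every member sequence and, of each partner list, up to 4 genes at 2-fold or more, or otherwise the 2 with the largest difference; other list genes were named after their values were seen. Members and lists were chosen with earlier results of these data known. Steps were tested on simulated data. Alternatives were the authors' series table, centring, quantile normalization, loess (span 0.3), an offset of 16, filters on dim sequences, and sizes of 1.5-fold and 3-fold. Each gene was also read by the mean and by the dimmest of its sequences. Python 3.11.15 with pandas and statsmodels was used.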

Additional observations from a re-analysis of the deposited data

How the results depend on the processing

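No paired analysis was possible because there was only 1 array of either genotype. Centring, quantile normalization and loess left the counts of member sequences at 3 lower and 1 higher. The lower count was 2 of 11 member sequences with the series table, where 2084 of all 34218 were. Above the random-sequence level on both arrays it was 2 of 10, where 1579 of 28412 were. At 3-fold it was 2 of 14, where 642 of 44170 were. Both at 3-fold are of Washc2, and BC056942 is by its bound only at least 2.10-fold lower, so 3-fold was measured for AK163765 alone. No member sequence was at least 2-fold higher (0) with the series table, with the offset, with either filter on dim sequences, at 3-fold, or with values below the random-sequence level raised to it, an alternative chosen after seeing the data. At 1.5-fold, 6 of 14 member sequences were lower and 2 higher, where 7761 and 7622 of all 44170 sequences were. These include AK031551 of Capza2 and AK017732 of Washc3, which by their bounds are only at least 1.04-fold lower and at least 1.43-fold higher. The median over member sequences was -0.23 with the series table, -0.58 with the filter at the array median and -0.19 with values raised to the random-sequence level. By the dimmest sequence of each gene, 1 member gene was lower (Washc2) and 1 higher (Washc3), a reading added after seeing the data. Over all sequences, 2989 were lower and 2642 higher. The higher count was 1752 of 34218 with the series table and 1685 of 24899 with the filter at the array median. The lower and higher counts were 1579 and 1314 of the 28412 sequences above the random-sequence level on both arrays. Over all sequences they were 1928 and 1659 with raised values, 7761 and 7622 at 1.5-fold, and 642 and 545 at 3-fold. Fewer sequences or a stricter size give fewer by construction. Over these array settings the brightest sequence ranged from -1.65 to -1.53 for Washc2, from -1.17 to -1.14 for Capza2 and from -0.78 to -0.68 for Capzb. The choice of sequence moved the values more. By the mean of a gene's sequences Washc2 was at -1.37, Capza2 at -1.06, Capzb at -0.17 and Washc3 at 0.52. By its dimmest sequence Capzb was at 0.70. The means of Washc2, Capza2 and Washc3 include a sequence below the random-sequence level on an array. Signals near background limit Washc1, Washc3 and Washc5.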
